A study of Mus musculus with 12 samples.

Results

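Cytosolic ribosomal protein genes were taken from the striatal RNA-seq table by symbol: Rpl or Rps with a number and an optional paralog letter, plus Rpsa, Rplp0, Rplp1 and Rplp2, without pseudogene names and without the Rps6k kinases. This gave 85 of the 18208 genes in the table, 53 of the large subunit (60S) and 32 of the small subunit (40S), and 73 of them held at least 1 of the 147438 distinct positions at which hnRNP H CLIP reads were counted, 245 positions in all. The study compared RNA bound by hnRNP H (CLIP-seq, in which protein is cross-linked to RNA and immunoprecipitated with an hnRNP H antibody) and total RNA in the striatum 30 min after methamphetamine or saline. Mice were wild type C57BL/6J, aged 50 to 100 days, born to heterozygous Hnrnph1 mutant fathers. They received saline (10 ml/kg) on the first 2 days and, on day 3, either saline again or methamphetamine at 2 mg/kg, all by intraperitoneal injection. Each treatment had 3 pools of striata from 4 mice (2 females and 2 males, drawn from several litters), and each pool gave 1 RNA-seq and 1 CLIP library, so that replicates are separate pools of different animals. Whole striata hold many cell types, so fewer cells of a type and less RNA per cell cannot be told apart.

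Ribosomal proteins are made in near equal amounts and assemble with ribosomal RNA in the nucleolus into the 2 ribosomal subunits. Their mRNAs begin with a pyrimidine tract (the terminal oligopyrimidine, or TOP, tract) through which mTOR signalling controls their translation, and many of their introns carry small nucleolar RNAs (snoRNAs), which guide ribose methylation (box C/D) or pseudouridylation (box H/ACA) of ribosomal RNA. hnRNP H is a nuclear RNA-binding protein that binds runs of guanines and regulates splicing.

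RNA-seq libraries held 3935160 to 5091839 reads and CLIP libraries 423057 to 1635338 reads. In both assays the genes other than the ribosomal protein genes divided the libraries on their first principal component (65.1% of the variance of 7776 genes in RNA, 41.3% of 8152 genes in CLIP) into saline 1, saline 3 and methamphetamine 2 on one side, called set A here, and saline 2, methamphetamine 1 and methamphetamine 3 on the other, called set B. In CLIP methamphetamine 3 had a score of 6.74, nearer to methamphetamine 2 (-32.6) than to saline 2 (54.7) or methamphetamine 1 (51.9). The sets cut across treatment and no label names them. They are not groups of the study, and comparisons between them are given as a description with no test. The 3 CLIP libraries of set B were the shallowest, and the authors' effective RNA library size was 0.860 to 0.904 of the recovered total in set A against 1.01 to 1.02 in set B. Summed RNA of 5 astrocyte markers was 419 to 495 CPM (read counts scaled to 1 common library size) in set A against 651 to 786 in set B (3 of the 5 above in each library of B, 0 below). Summed RNA of 10 striatal projection neuron markers was 6847 to 7626 CPM in A and 5743 to 6471 in B (6 of 10 lower in each library of B). The 5 microglial markers summed to 179 to 211 and 256 to 291 CPM, and the 4 endothelial markers to 45.0 to 56.3 and 74.2 to 106. The 8 cortical excitatory markers summed to 251 to 588 and 610 to 1307 CPM. Of these, 2 microglial, 3 endothelial and 2 cortical markers were above in each library of B, and 0 were below. The sums are scaled to plain library totals. The counts of markers, and the log2 CPM levels below, use the authors' effective library sizes. The ranges overlapped for 8 oligodendrocyte markers (4668 to 10809 and 7118 to 12862), for the 4 measured of 5 blood markers (351 to 462 and 411 to 877) and for 8 choroid plexus markers, which reached 4465 CPM in methamphetamine 2 against 63.9 to 206 elsewhere, with Kcnj13 and Sostdc1 at 0 in at least 1 library. Their part in the results below was not tested.

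Sequences that the results turn on are shown first. The RNA start sites of members are shown as the 30 bases from 10 before to 20 after the annotated start (RefSeq, build GRCm38.p6), with the longest run of C or T in capitals. Where a gene has several annotated starts, the one with the longest run is shown. Rps24 has another with a run of 7, and Rpl35a has others with runs of 4 and 5. Rps24, Rpl35a and Rpl39 had the widest spread of RNA level over the libraries, and Rpl36al and Rpl12 the reverse pattern.
Rps24, chr14:24490668-24490697, plus strand: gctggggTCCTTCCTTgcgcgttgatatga
Rpl35a, chr16:33056472-33056501, plus strand: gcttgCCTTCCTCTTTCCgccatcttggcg
Rpl39, chrX:37085203-37085232, minus strand: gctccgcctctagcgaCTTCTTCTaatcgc
Rpl36al, chr12:69184048-69184077, minus strand: ccgtcgctcaggttcagttccgaCTTCCgc
Rpl12, chr2:32961702-32961731, plus strand: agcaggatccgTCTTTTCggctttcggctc

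A RefSeq start was found for 65 of the 85 members. A run of at least 6 pyrimidines (C or T, on the RNA strand) stood in this window in 39 of the 65 members. It did so in 32.4% of 14381 genes of the RNA table and 33.3% of 69 mitochondrial ribosomal protein genes. The run could lie anywhere in the window, also wholly before the start, so this is not a count of TOP tracts. Rps24, Rpl35a, Rpl39 and Rpl12 hold such a run and Rpl36al does not. Set B minus set A in RNA level had a median of 0.43 log2 over the 34 expressed members with the run and 0.46 over the 23 without.

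The snoRNAs under the strongest CLIP positions, and the Rps23 position that carried most CLIP reads of that gene, are shown with each GGG in capitals (GENCODE M21 transcripts, build GRCm38), since runs of guanines are the known binding sequence of hnRNP H.
Snord83b, in Rpl3, chr15:80078498-80078591, minus strand: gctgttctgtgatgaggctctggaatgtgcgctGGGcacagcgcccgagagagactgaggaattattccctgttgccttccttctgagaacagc
Snord32a, in Rpl13a, chr7:45127382-45127464, minus strand: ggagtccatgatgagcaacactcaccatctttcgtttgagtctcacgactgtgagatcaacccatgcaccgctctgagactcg
Snora70, in Rpl10, chrX:74272484-74272620, plus strand: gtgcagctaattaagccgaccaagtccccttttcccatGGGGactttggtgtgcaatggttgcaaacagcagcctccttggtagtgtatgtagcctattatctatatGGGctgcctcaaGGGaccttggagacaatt
Snord68, in Rpl13, chr8:123103038-123103123, plus strand: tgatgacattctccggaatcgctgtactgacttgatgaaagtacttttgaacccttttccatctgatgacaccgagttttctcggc
Rps23 position, chr13:90923259-90923358, plus strand: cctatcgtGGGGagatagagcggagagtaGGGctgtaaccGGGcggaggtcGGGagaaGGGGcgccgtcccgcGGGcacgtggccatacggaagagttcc

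The Rps23 position holds GGG at 8 overlapping places in 100 bases. Snord83b holds 1, Snora70 holds 4, and Snord32a and Snord68 hold none. The counted position of Snora70 overlaps only its last 8 nt, which hold no GGG. GGG stood in 8 of the 33 snoRNAs of members with a counted CLIP position (24.2%) and in 17 of the 25 without one (68.0%). It stood in 57.6% of all 1558 annotated snoRNAs. Of the 25, Snord33, Snord15b and AF357399 did lie under peaks listed by the authors, so the 25 are not all free of CLIP signal. These are matches of letters on the snoRNA strand and show no site.

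Ribosomal protein mRNAs held 1.10% of RNA reads in saline 1 (95% Wilson interval 1.09 to 1.11), 1.40% in saline 2 (1.39 to 1.41) and 0.994% in saline 3 (0.985 to 1.00). They held 1.52% in methamphetamine 1 (1.51 to 1.53), 0.995% in methamphetamine 2 (0.986 to 1.00) and 1.41% in methamphetamine 3 (1.40 to 1.42). The intervals cover counting error only. The share was 1.16% ± 0.21 (SD, n = 3) with saline and 1.31% ± 0.28 with methamphetamine, and the treatments overlapped. Each library of set B (1.40 to 1.52%) lay above each of set A (0.994 to 1.10%).

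RNA levels per kb of mRNA (CPM per kb, mean over 6 libraries, one reference mRNA per gene) differed widely between members. The highest were Rps29, a zinc-binding protein of the small subunit, at 1517 CPM per kb (1398 to 1631 over the libraries), Rpl32 of the large subunit at 1185 (879 to 1422) and Rps15, which lies at the decoding side of the small subunit, at 813 (666 to 938). The median of the 84 members with a reference mRNA was 147. The lowest were 3 paralogs. Rpl3l, known from muscle, was at 1.71 (1.25 to 2.56) with 59 reads in all. Rpl39l and Rpl10l, known from the male germ line, had 5 and 2 reads over the 6 libraries, and no fold is given for them.

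The paralogs are related copies of a ribosomal protein gene, and only some are known to replace it in the ribosome. The shares below are of RNA reads and do not show what ribosomes contain. Rpl36al held 98.2% of the reads of the pair Rpl36a and Rpl36al, Rpl22l1 held 28.8% of its pair with Rpl22, Rpl7l1 held 18.3% of its pair with Rpl7, Rps27l held 4.16% with Rps27, and Rpl3l held 0.848% with Rpl3. Read counts were summed over the libraries. The Rpl36al share was 99.2 to 99.6% in the 3 libraries of set A and 94.7 to 97.9% in set B. The Rpl22l1 share ran from 16.8% in methamphetamine 3 to 40.7% in saline 1. Rps4x and Rps3a1, whose paralogs were not in the table, totalled 616 and 2446 reads. How reads shared with near-identical copies and processed pseudogenes were counted is not given in the sources used here, so that the split within a pair is uncertain.

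No ribosomal protein gene passed the test for a change of RNA level with methamphetamine (limma on the deposited log2 CPM values of all 18208 genes, Benjamini-Hochberg adjusted p under 0.05). Among all genes 0 passed (0%), 276 (1.52%) had an unadjusted p under 0.05 and 109 did by edgeR's test on the recovered reads. Of the 85 members 0 had an unadjusted p under 0.05 by limma and 1 by edgeR. The change was positive for 64 members (75.3%, against 50.4% of all genes) and negative for 21, with a median of 0.12 log2 against 0.00 over all genes. On plain library totals 73 members were positive (85.9%, against 62.6% of all genes) and 12 negative, with medians of 0.20 and 0.09. In the large subunit 39 of 53 were positive (median 0.12) and in the small subunit 25 of 32 (median 0.11).

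Rpl7l1 had the smallest p. Its level was 3.80, 4.12 and 4.11 log2 CPM in saline 1 to 3 and 4.57, 4.25 and 4.63 in methamphetamine 1 to 3. It was the only expressed member (mean log2 CPM above 4) whose methamphetamine pools all lay above the saline pools, 1 of 77 members against 2.22% of all such genes, and 0 members lay the other way against 1.53%. The difference was 0.47 ± 0.21 log2 (SE; unadjusted p = 0.051, limma adjusted p = 1.00). Rpl22l1 was at 4.55, 4.17 and 3.73 with saline and 3.90, 3.58 and 3.07 with methamphetamine, so that the groups overlapped, and differed by -0.64 ± 0.30 (limma adjusted p = 1.00). Rps18 was at 6.54, 6.49 and 5.96 against 6.61, 6.43 and 7.00, a difference of 0.35 ± 0.22, and Rpl18 at 6.65, 6.71 and 6.83 against 7.07, 6.80 and 7.03, a difference of 0.23 ± 0.15. Both groups of pools overlapped for these 2 genes, and Rpl10l, which ranked among the 5 smallest p-values, rested on 2 reads.

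The balance of positive and negative members was different within the library sets. Set B holds 2 of the 3 methamphetamine libraries. Each difference within a set rests on 1 library of a treatment, and the part of the sets in the balance was not tested. Within set A (methamphetamine 2 minus the mean of saline 1 and 3) 18 of 85 members were positive, with a median of -0.10 log2. Of all 18208 genes 8712 were positive there, with a median of -0.02. Within set B (the mean of methamphetamine 1 and 3 minus saline 2) 42 of 85 members were positive, with a median of -0.01. Of all genes 8517 were positive there, with a median of -0.03. With the set as a covariate in the limma fit, 31 members were positive and 54 negative, with a median of -0.06. Of all genes 48.1% were positive in that fit, with a median of -0.01. Leaving out 1 library at a time, the median was 0.08 without saline 1, 0.29 without saline 2, -0.01 without saline 3, 0.01 without methamphetamine 1, 0.31 without methamphetamine 2 and 0.04 without methamphetamine 3. The members with an unadjusted p under 0.05 then numbered 4 of 85 without saline 2, beside 928 of all 18208 genes, and 7 of 85 without methamphetamine 2, beside 958 of all genes. They numbered 0 to 2 without any other library, beside 192 to 368 of all genes.

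**Figure D1:**
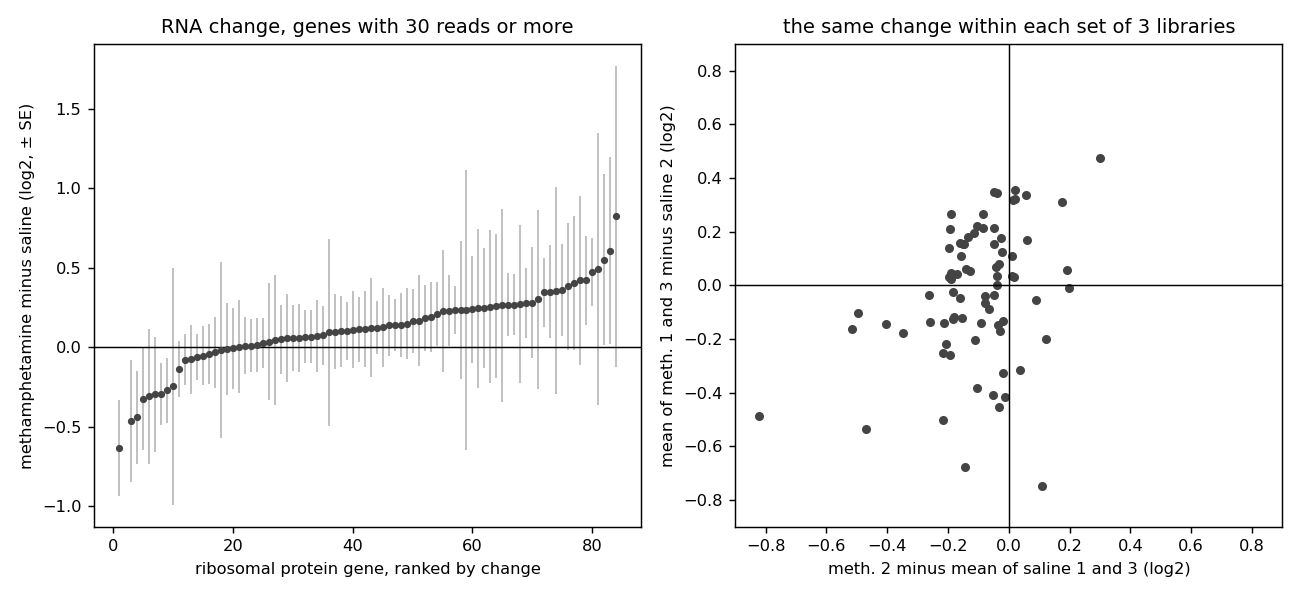
Left, methamphetamine minus saline in log2 RNA level with its SE for the 83 members with 30 reads or more, ranked; 64 of all 85 members were positive and none passed the test. Right, the same difference within set A (x axis, log2) and within set B (y axis, log2) for the 77 members with mean log2 CPM above 4; most points lie left of 0, and they lie on both sides of 0 on the y axis.

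Most ribosomal protein mRNAs stood higher in one set of libraries than in the other. Of the 77 expressed members, 47 had all libraries of B above all libraries of A (61.0%, against 26.4% of the 7853 expressed genes), 8 had the reverse order (10.4%, against 19.9%), and 22 overlapped. The median of set B minus set A was 0.45 log2 over the members and 0.04 over all expressed genes. The range was -0.98 to 2.84. The SD over the 6 libraries was above 1 log2 in 4 of the 77 members (5.19%), against 1.02% of expressed genes.

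Rps24, a small-subunit protein mutated in Diamond-Blackfan anaemia (chr14:24487125-24496959), was at 4.29, 6.91 and 3.40 log2 CPM in saline 1 to 3 and 7.00, 3.88 and 6.19 in methamphetamine 1 to 3. Its 3 high libraries were those of set B and its low libraries those of set A, with 379 to 638 reads against 42 to 69. The log2 CPM averaged 6.70 in set B and 3.86 in set A, so that the geometric mean CPM of set B was 7.18 times that of set A. Methamphetamine minus saline was 0.82 ± 0.95 log2 (limma adjusted p = 1.00), within the spread of either group (SD 1.83 and 1.62).

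Rpl35a, a large-subunit protein also mutated in that anaemia (chr16:33056453-33060189), was at 4.43, 6.34 and 3.25 with saline and 5.86, 3.02 and 5.85 with methamphetamine. Rpl39, a small protein that lines the exit tunnel (chrX:37082520-37085402), was at 2.30, 4.56 and 1.94 and at 4.77, 1.62 and 3.88. Both followed Rps24 across the libraries, with set B 5.48 and 5.46 times set A, and the treatments overlapped for both. Rpl39 had 13 to 17 reads in the libraries of set A and 76 to 136 in those of set B. Its mean log2 CPM of 3.18 is under 4, so that it is not among the 77 expressed members. Rps15a, a small-subunit protein named after its values were seen, was at 4.59, 5.80 and 3.50 and at 5.82, 3.64 and 5.49, with set B 3.47 times set A.

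Rpl36al went the other way (chr12:69182731-69184083). It was at 9.04, 7.92 and 8.73 with saline and 8.32, 8.70 and 7.28 with methamphetamine, and set A was 1.98 times set B. Its partner Rpl36a was 3.40 times higher in set B, on 162 reads against 8961 for Rpl36al. Rpl12, at the base of the ribosomal stalk (chr2:32961559-32965345), was at 8.36, 7.59 and 8.71 and at 7.88, 8.41 and 7.40, with set A 1.82 times set B. Rpl23, a large-subunit protein that binds Mdm2, was named after its values were seen. It was at 6.48, 5.92 and 6.28 and at 5.90, 6.33 and 5.13, with set A 1.64 times set B. Rps29 was at 9.30, 9.12 and 9.17 with saline and 9.31, 9.09 and 9.24 with methamphetamine, an SD of 0.09 log2 over the 6 libraries, and its sets overlapped.

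**Figure D2:**
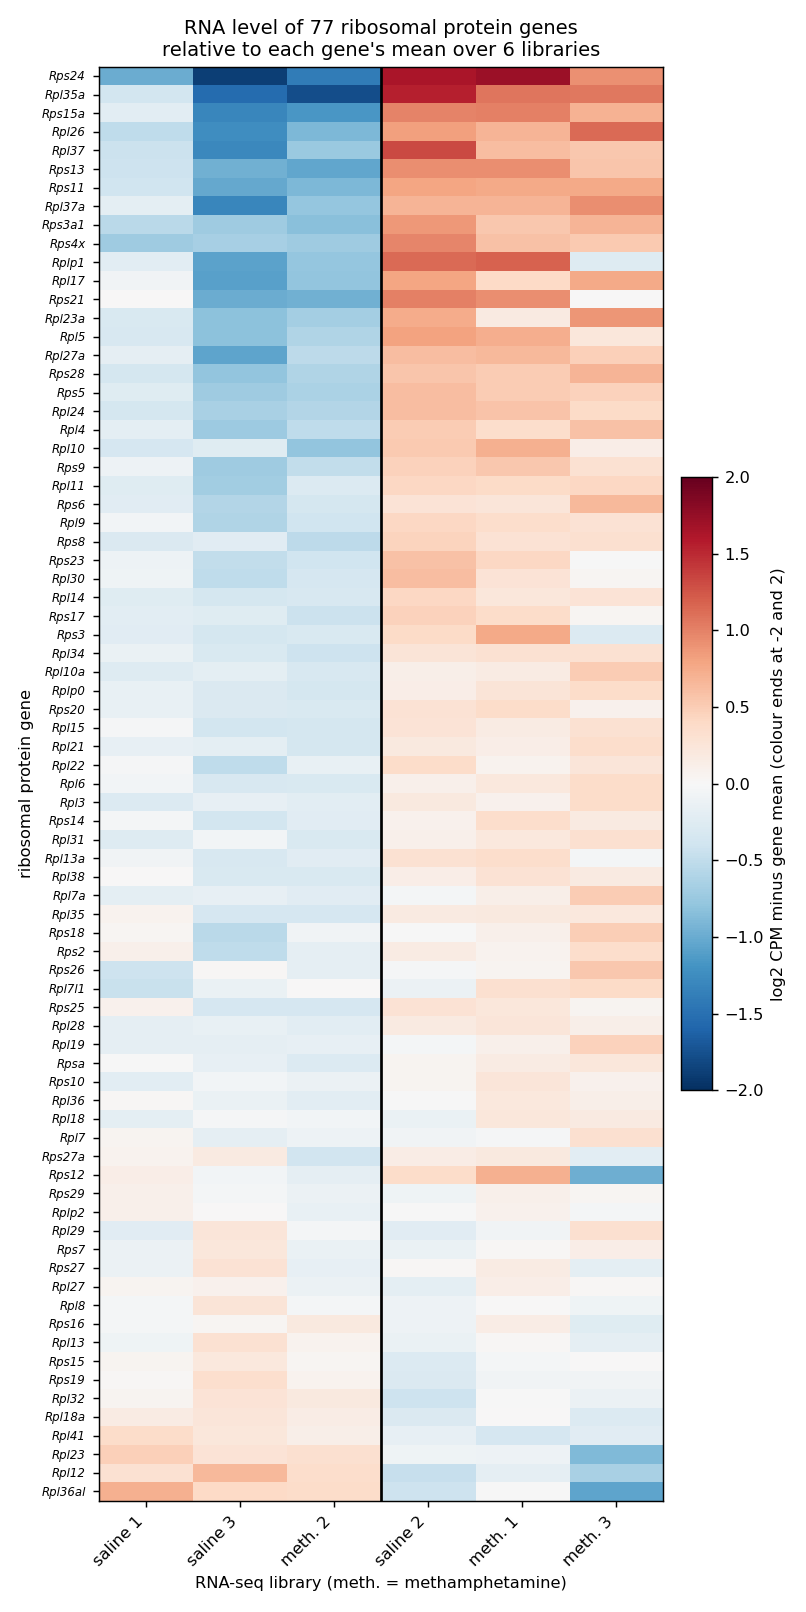
RNA level (log2 CPM minus each gene's mean over the 6 libraries, colour) of the 77 members with mean log2 CPM above 4 (rows), in the libraries of set A (left of the line) and set B (right). Rows are ordered by the difference between the sets, from Rps24 (2.84 log2 higher in set B) to Rpl36al (0.98 log2 higher in set A).

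**Figure D3:**
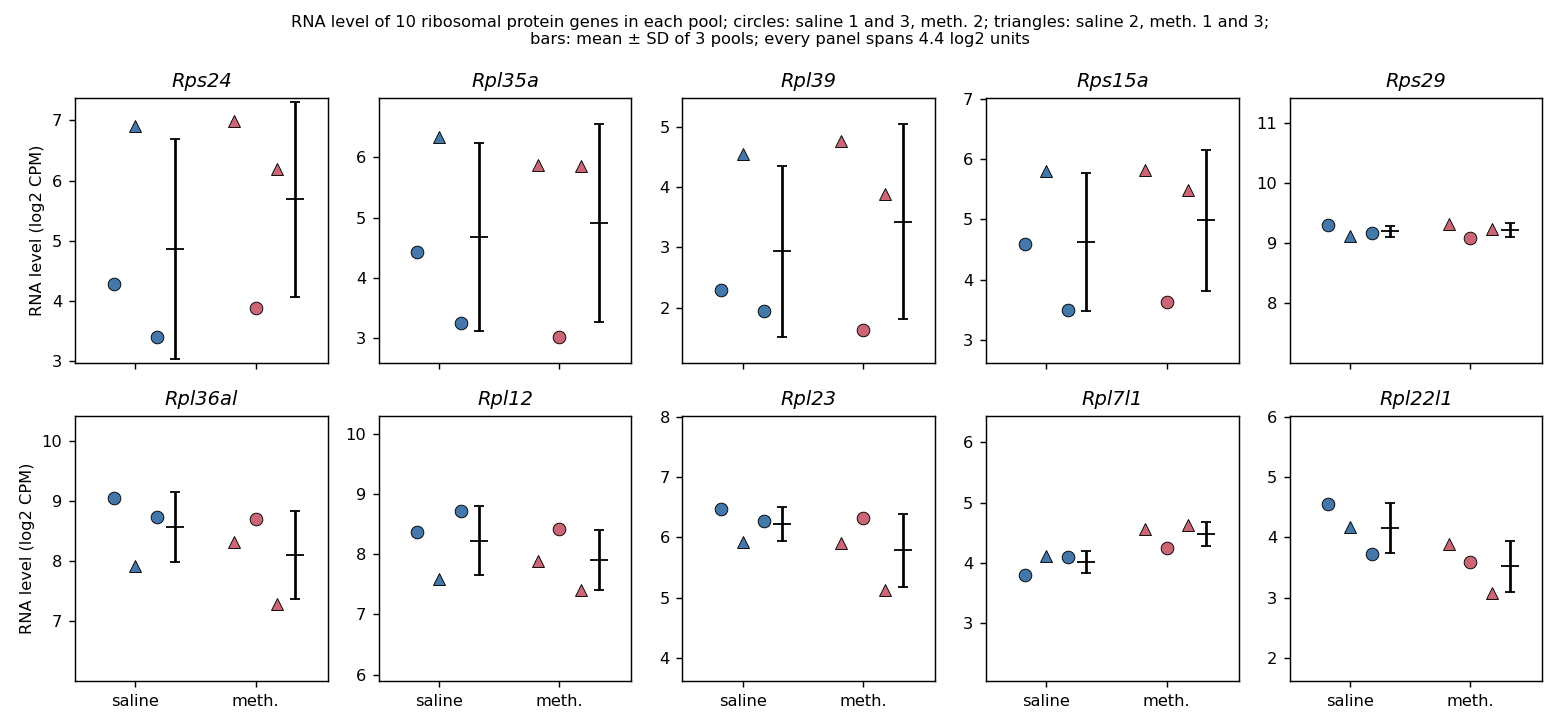
RNA level (log2 CPM, y axis) of 10 members in each saline and methamphetamine pool, with circles for set A, triangles for set B and bars for the mean and SD of 3 pools. Saline and methamphetamine points overlap in each panel but that of Rpl7l1, while triangles stand above circles for Rps24, Rpl35a, Rpl39 and Rps15a and below them for Rpl36al, Rpl12 and Rpl23.

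Members with a lower GC content tended to stand higher in set B, as did other genes. Across the 77 members it had a Spearman rho of -0.42 with the GC content of the mRNA and of 0.08 with its length. Across 7729 expressed genes the values were -0.41 and -0.05. With the mean RNA level the rho was -0.46 across the members and -0.19 across all expressed genes. The points are genes of the same 6 libraries, not replicates. The 10 members highest in set B had a median GC content of 48.2% (46.0 to 53.3) and the 10 highest in set A 52.8% (46.4 to 59.6). The median difference was 0.46 log2 over the 29 expressed members with an annotated snoRNA and 0.42 over the 48 without.

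The other gene lists of the ribosome pathway held 0 genes with an unadjusted p under 0.05 for methamphetamine and 0 past the adjusted threshold. Among 15 translation factors and other genes of the TOP class 11 were positive (median 0.05 log2). Of these 15, Eef1d (0.26 ± 0.17) and Nap1l1 (-0.29 ± 0.19) had the smallest p. Among 20 genes of ribosome biogenesis and RNA polymerase I 10 were positive (median 0.01), with Wdr12 (-0.52 ± 0.34) and Polr1c (0.26 ± 0.21) first. Among 78 mitochondrial ribosomal protein genes 54 were positive (median 0.05), with Mrps31 (0.56 ± 0.25) and Mrps5 (0.37 ± 0.18) first. Among 14 genes of growth signalling to ribosomal protein mRNA 6 were positive (median -0.02), with Eif4ebp1 (0.71 ± 0.52) and Rps6kb1 (0.30 ± 0.31) first. Fau, which encodes a ribosomal protein fused to a ubiquitin-like protein, differed by 0.09 ± 0.18. No row of the RNA table was named Gas5 or Snhg with a number, the names of snoRNA host genes without a protein product that were looked up.

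Between the library sets these lists had smaller medians than the members' 0.45 log2, a difference that was not tested. The mitochondrial ribosomal proteins had a median of 0.19 log2 for set B minus set A. Of the 41 expressed, 14 had all libraries of B above all of A, 2 had the reverse and 25 overlapped. Over all expressed genes the first 2 shares were 26.4% and 19.9%. By the same counts the TOP-class list had a median of 0.16 (4 and 2 of 13), biogenesis 0.06 (4 and 3 of 14) and growth signalling -0.04 (2 and 1 of 10). Eef1a1, a TOP-class elongation factor named after its values were seen, was at 8.23, 9.27 and 7.52 log2 CPM with saline and 8.87, 7.85 and 9.30 with methamphetamine, the same order of sets as Rps24.

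In the hnRNP H CLIP libraries, reads in ribosomal protein genes made up 0.059% of all counted reads in saline 1 (95% Wilson interval 0.055 to 0.064), 0.079% in saline 2 (0.071 to 0.088) and 0.065% in saline 3 (0.062 to 0.069). They made up 0.11% in methamphetamine 1 (0.10 to 0.12), 0.058% in methamphetamine 2 (0.053 to 0.063) and 0.11% in methamphetamine 3 (0.10 to 0.12). The treatments overlapped, at 0.068% ± 0.010 with saline and 0.093% ± 0.030 with methamphetamine (SD, n = 3), and each library of set B lay above each of set A. The share of RNA reads was 12.7 to 18.5 times the share of CLIP reads in the 6 pools. Per length of gene body, members held 6.57 positions per 10 kb and 11.4 CLIP reads per kb, against 1.43 and 5.44 over all genes with a position. Their gene bodies are short, with a median of 3289 nt against 23683.

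Of the 245 positions, 96 lay in introns, 93 in exons of non-coding transcripts or transcript parts, 20 in 5′ UTRs, 19 in 3′ UTRs, 16 in coding sequence and 1 outside, by GENCODE. A total of 36 overlapped a snoRNA annotated on the same strand by at least 1 nt. This was 14.7% of the members' positions and 0.090% of the 147193 other positions. A total of 33 of the 58 snoRNAs inside members (56.9%) had a position, against 91 of 1500 snoRNAs elsewhere (6.07%). The snoRNA positions took 1096 of the members' 4261 CLIP reads (25.7%), the 55 others in the first 500 nt of a gene 1960 (46.0%) and the remaining 154 positions 1205 (28.3%).

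CLIP reads on the members' snoRNAs stood apart between the library sets. They summed to 69.3 CPM in saline 1, 274 in saline 2 and 80.1 in saline 3, and to 539, 75.5 and 356 in methamphetamine 1 to 3, from 73, 116, 131, 490, 74 and 212 reads. Saline 2 stood with methamphetamine 1 and 3, and methamphetamine 2 with saline 1 and 3, so that the treatments overlapped. The mean of set B was 5.20 times that of set A, and 1.14 times for the members' other positions (505 to 574 CPM in A, 515 to 756 in B). Of these, the 154 remaining positions also had the libraries of B (249 to 364 CPM) above those of A (152 to 184), while those in the first 500 nt overlapped (324 to 390 in A, 225 to 391 in B). snoRNA reads were 11.7 to 13.0% of the members' CLIP reads in set A against 32.0 to 48.9% in set B.

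Of the members' 11 snoRNA positions with 30 reads or more, all 11 had every B library above every A library. Snora70 and Snora3 overlapped their positions by 8 and 4 nt. The same order held for 5.96% of all 20545 positions of that depth and for 74.2% of the 62 such positions on any snoRNA, and no test of a difference from other snoRNAs was made. Some of the 11 orders rest on few reads. Snora3 had 1, 3 and 3 reads in saline 1 to 3 and 19, 3 and 2 in methamphetamine 1 to 3. Snora62 had 5, 3 and 7 and then 15, 4 and 3. snoRNA positions outside the members summed to 3532 to 4772 CPM in set A against 5432 to 13726 in set B. Of the members' 12 other positions of that depth, 1 had every B library above every A library and 2 had the reverse. The reverse held for 22.3% of all positions of that depth. Depth moved with this, as given above, and its part was not tested.

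**Figure D4:**
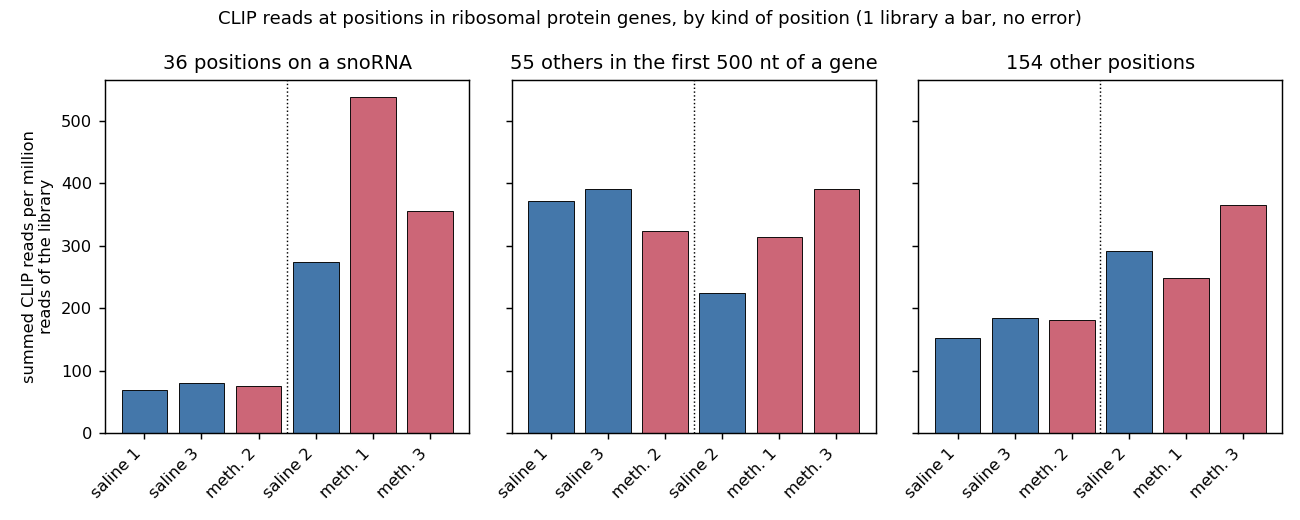
Summed CLIP CPM in each library (bars, one library each, blue saline and red methamphetamine) at the members' 36 snoRNA positions, the 55 others in the first 500 nt of a gene and the remaining 154. The left panel runs from 69.3 to 80.1 in set A (left of the dotted line) and from 274 to 539 in set B, the right panel from 152 to 184 and from 249 to 364, and the middle panel overlaps.

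The strongest snoRNA position lay on Snord83b in an intron of Rpl3, a protein near the peptidyl transferase centre. It had 20, 14 and 36 reads in saline 1 to 3 and 63, 9 and 63 in methamphetamine 1 to 3, or 19.0, 33.1 and 22.0 CPM against 69.3, 9.18 and 106. The highest values were methamphetamine 1 and 3, and methamphetamine 2 was the lowest of the 6. Snord32a in Rpl13a, a protein also known for a role outside the ribosome in interferon-gamma-responsive translational control, had 11, 7 and 11 reads against 48, 6 and 20. Snora70 in Rpl10, a late-joining large-subunit protein, had 3, 10 and 4 against 70, 0 and 9, so that 1 library held 70 of 96 reads. Snord68 in Rpl13 had 7, 6 and 8 against 37, 3 and 17. In CPM all 4 had the libraries of B above those of A.

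Outside snoRNAs the reads gathered in few places. Rpl32 (chr6:115805505-115808747) had 1 position, chr6:115808506-115808605 in an intron about 192 nt from the start of the gene, with 104, 27 and 165 reads in saline and 41, 119 and 36 in methamphetamine. In CPM it was 98.7, 63.8 and 101 against 45.1, 121 and 60.5, with all libraries of A above those of B, the reverse of the snoRNA positions. Rpl38, which is known for its part in translating Hox mRNAs, had the most CLIP reads of the members, 526, of which 255 and 258 fell in 2 neighbouring positions at its 5′ UTR (chr11:114668625-114668724 and chr11:114668725-114668824). Summed over the gene the reads were 43.7, 66.2 and 115 CPM with saline and 133, 77.6 and 113 with methamphetamine, and the groups overlapped.

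**Figure D5:**
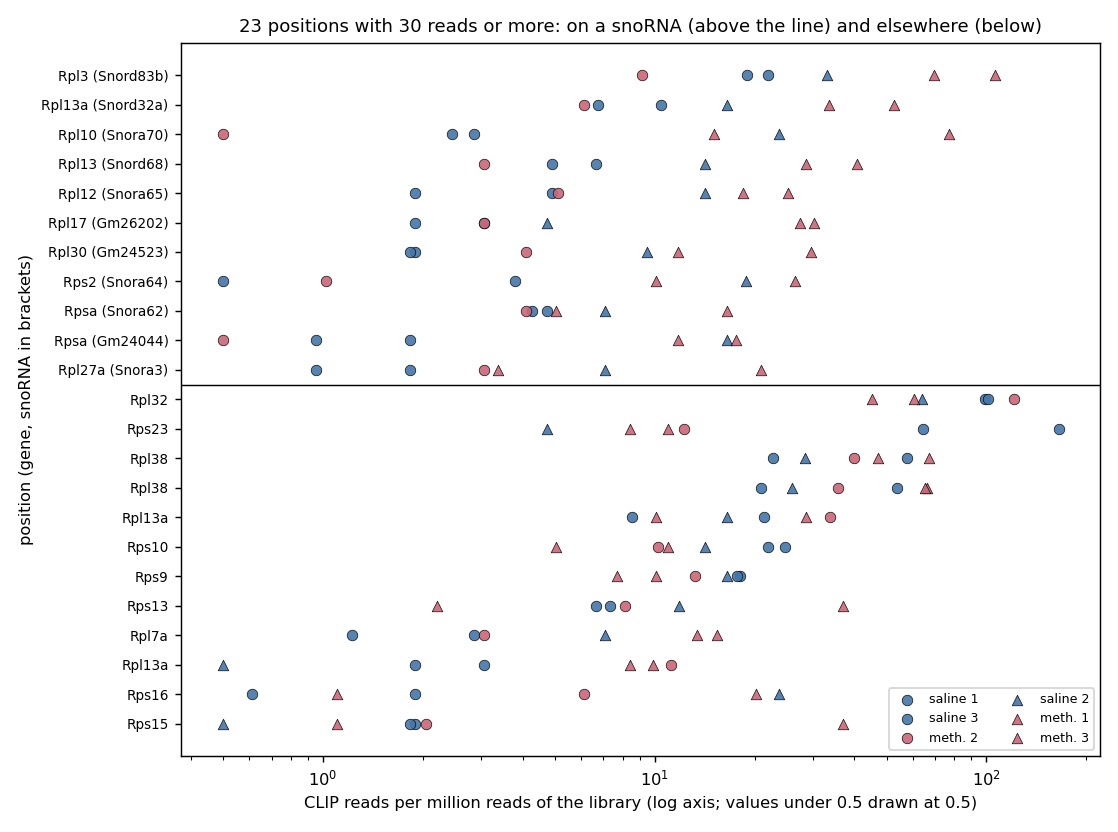
CLIP CPM in each library (log axis; circles set A, triangles set B, blue saline, red methamphetamine) at the members' 23 positions with 30 reads or more (rows). Above the line the triangles stand right of the circles at all 11 snoRNA positions; below it they do so at 1 of the 12 other positions.

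The per-gene test of CLIP reads with methamphetamine (edgeR's quasi-likelihood test over 8171 genes) covered 19 of the 73 members with a position, since the others did not pass the filter on low counts. A total of 0 passed the adjusted threshold (0% of all genes), by edgeR and by DESeq2. Unadjusted p was under 0.05 for 3 members, 2 higher and 1 lower, by either tool, and for 426 genes in all by edgeR (5.21%) and 393 by DESeq2. Of the 40 members with 30 reads or more, Rpl13a and Rps14 had each methamphetamine library above each saline library (5.45% of all such genes) and 0 lay the other way (4.15%). Rps14 fell outside the naming rule and was named for this count.

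Rps23, a protein of the decoding centre (chr13:90922958-90924950), had the smallest p and was the member that was lower. It had 175, 4 and 105 CLIP reads in saline 1 to 3 and 11, 13 and 5 in methamphetamine 1 to 3, or 166, 9.45 and 64.2 CPM against 12.1, 13.3 and 8.40. Saline 1 and 3 were high, and saline 2 lay within the methamphetamine range, so that the groups overlapped. The fitted difference was -2.82 ± 0.83 log2 (unadjusted p = 0.0080, edgeR adjusted p = 0.88). A single 100-nt position held 308 of the 313 reads, in the first exon of the non-coding transcript Rps23-203 (chr13:90923217-90923406), printed above. There the fitted difference was -2.68 ± 0.94 (edgeR adjusted p = 1.00), and with no filter on low counts it was -3.15 (edgeR adjusted p = 0.038). Without saline 1 the difference over the gene was -1.77. The 2 high libraries were both of set A, but methamphetamine 2, the other library of that set, was at 13.3 CPM. With the set as a covariate the difference over the gene was -1.88 (unadjusted p = 0.060). The RNA level of Rps23 was 7.26 ± 0.54 log2 CPM with saline and 7.26 ± 0.40 with methamphetamine.

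Rpl13a had 26, 17 and 56 CLIP reads with saline and 100, 53 and 36 with methamphetamine, or 24.7, 40.2 and 34.2 CPM against 110, 54.1 and 60.5, and the groups did not overlap. Its difference was 1.19 ± 0.45 log2 (edgeR adjusted p = 0.88), and 40.6% of its reads lay on snoRNAs. Rpl7a had 3, 6 and 6 against 34, 7 and 16 reads (2.01 ± 0.86, edgeR adjusted p = 0.88), 54.2% of them on snoRNAs. Rpl22 (1.20 ± 0.57, no snoRNA reads) and Rpl12 (1.48 ± 0.77, 79.7% on snoRNAs) followed. The difference of Rpl13a was 0.77 (unadjusted p = 0.093) without methamphetamine 1 and 0.46 (unadjusted p = 0.44) over positions outside introns, and that of Rpl22 was 0.64 without methamphetamine 1. With the set as a covariate Rpl7a was at 1.08 and Rpl12 at 0.87, and without saline 1 Rpl12 was at 0.91. Rpl7a and Rpl12 had the libraries of B above those of A, while Rpl13a and Rpl22 overlapped between the sets.

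Per position, 13 of the 245 member positions passed the filter, 0 passed the adjusted threshold (0% of 10358 positions), and 1, that in Rps23, had an unadjusted p under 0.05 (3.56% of all). DESeq2 also gave 0 past the adjusted threshold, and 345 positions with an unadjusted p under 0.05. Of the 23 positions with 30 reads or more, 2 had all saline libraries above all methamphetamine libraries (4.73% of all such positions) and 1, in Rpl13a, the reverse (3.59%). The 2 lay in introns of Rps10 and Rps9, that in Rps9 at the edge of an exon. Both encode small-subunit proteins and were named after these values were seen. The Rps10 position (chr17:27631519-27631618) was at 24.7, 14.2 and 22.0 CPM with saline and 11.0, 10.2 and 5.04 with methamphetamine (-1.03 ± 0.51 log2, edgeR adjusted p = 1.00). The Rps9 position (chr7:3704594-3704693) was at 18.0, 16.5 and 17.7 against 7.70, 13.3 and 10.1 (-0.64 ± 0.44, edgeR adjusted p = 1.00).

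In CLIP relative to RNA (edgeR, assay by treatment interaction, 6481 genes), 19 members were tested, 0 passed (0% of all) and 4 had an unadjusted p under 0.05 (5.51% of all). These were Rps23 at -2.92 ± 0.88 log2, Rpl12 at 1.81 ± 0.77, Rpl13a at 1.02 ± 0.45 and Rpl7a at 1.72 ± 0.78, each with an edgeR adjusted p of 0.88. With the pool as a block, since the labels pair the assays within a pool, 2 of the 4 had an unadjusted p under 0.05, Rps23 at -2.59 (unadjusted p = 0.023) and Rpl13a at 0.97 (unadjusted p = 0.048), beside 176 of 6481 genes. With the set as a covariate 2 of 19 members had one, Rps23 at -1.88 (unadjusted p = 0.035) and Rpl13a at 0.92 (unadjusted p = 0.036), beside 336 of 6481 genes.

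The authors' 2 lists of final CLIP peaks, one per treatment, gave the symbol of a ribosomal protein gene in no row. The peak names of 11 methamphetamine and 10 saline positions did carry the Ensembl gene identifier of a member. The methamphetamine list has 9903 and the saline list 9537 distinct positions. Of the 9026 gene symbols with 50 or more CLIP reads, 48.0% were listed with methamphetamine and 47.8% with saline, against 0 of 20 members of that depth in either list. The same held for symbols that share the letters: 0 of 19 mitochondrial ribosomal protein genes of that depth, among them Mrpl13 with 915 and Mrps22 with 802 CLIP reads, 0 of 7 S6 kinase genes (Rps6k), and 0 of 49 genes whose symbol holds "rpl" or "rps" anywhere, including Trps1 with 158 reads and Prps1 with 59. Of 12 other genes whose symbol begins with Rp, 6 were listed in each. Why these symbols are absent from the lists is not given in the sources used here. Absence of a symbol therefore does not show absence of CLIP reads.

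Positions inside members did appear under the symbols of other genes. In the methamphetamine list 16 lay inside a member on its strand, 15 of them on a snoRNA, and in the saline list 13, 12 of them on a snoRNA. The exception in both was chr10:128548215-128548314 in Rpl41, listed under the neighbouring gene Zc3h10. Since no row carries a member's symbol, a position inside a member could be listed only under another gene, such as a snoRNA. These snoRNA shares therefore do not describe CLIP positions in members at large. Of the 245 counted positions in members, 36 (14.7%) overlapped a snoRNA. At the same coordinates 7 listed positions inside members were in both lists (43.8% of those listed with methamphetamine, 53.8% of those with saline). They lay in Rpl10 (Snora70), Rpl13 (Snord68), Rpl13a (Snord32a), Rps2 (Snora64), Rps3 (Snord15b), Rpsa (Snora62) and Rpl41. Snord83b in Rpl3 was in both lists at overlapping but unequal coordinates, chr15:80078499-80078598 with methamphetamine and chr15:80078492-80078591 with saline. The authors' signal values ranged from 0.71 to 3.55 with methamphetamine and from 1.01 to 3.12 with saline, with list medians of 1.6 and 1.68. The highest were the Snora70 positions in Rpl10 (3.55 with methamphetamine, 3.12 and 2.95 with saline), then Snord32a in Rpl13a (2.04), Snord68 in Rpl13 (2.01), Snora62 in Rpsa (1.99) and AF357399 in Rps16 (1.91) with methamphetamine, and Rpl41 (2.73), Snora65 in Rpl12 (2.02) and Snora62 in Rpsa (1.94) with saline. There is 1 list per treatment, so these values carry no replicate error and no comparison is drawn from them.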

How the data were processed

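RNA-seq values were deposited by the authors as log2 CPM (limma's voom scale, per the labels), and CLIP values as read counts per peak position. The peak lists deposited by the authors hold a score (signal value, scale not stated) and a p-value per position, with 1 list per treatment. How libraries were combined for a list is not given in the sources used here. The submitters' processing notes name Trimmomatic, UMI-tools, STAR, bedtools, Subread, featureCounts, limma and edgeR, and build mm10. Strand use and the treatment of reads that match several places are not given in the sources used here. Whole reads were recovered from the log2 CPM values with an offset of 0.5 reads (100% whole within 0.1). Repeated lines of a CLIP position were counted once. The RNA test was limma (version 3.58.1) with a variance trend on all genes, the deposited values being scaled to effective library sizes. CLIP tests were edgeR (4.0.16) quasi-likelihood tests with TMM scaling and filterByExpr, DESeq2 (1.42.0) being an alternative. p-values were adjusted over all features (Benjamini-Hochberg). Only the main fit of each comparison was tried on simulated data, and the alternatives were not. The simulated data had large changes, less spread between libraries than these data and no library sets. CLIP CPM are per library total, and levels per kb use 1 GENCODE M21 mRNA a gene (principal isoform, longest coding sequence, shortest mRNA). snoRNA overlap was at least 1 nt on the same strand. Per the labels a portion of each pool went to RNA-seq, which pairs the assays within a pool. Replicate numbers do not pair treatments. The members, gene lists, library sets and alternatives were chosen with earlier results of these data known. Named members were those with the 3 highest and 3 lowest levels per kb, the 5 smallest RNA p, the 3 largest SDs, the 5 largest CLIP totals, the 5 smallest CLIP and 3 smallest interaction p, a position in both lists, 1 of the 5 highest signals of a list, the paralogs with partners, and any past an adjusted threshold. Members named outside this rule are marked in the text. For other lists the 2 genes with the smallest p were named.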

Additional observations from a re-analysis of the deposited data

How the results depend on the processing

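The count of genes or positions past the adjusted threshold was 0 in each fit and stayed 0 under each alternative run (13 for RNA, 12 for CLIP per gene, 10 of 11 per position, 10 for CLIP relative to RNA), except that 414 of 140449 positions passed with no filter on low counts, 1 of them in a member (Rps23). Leaving out replicates gave 0 to 0 in all 4. The members' median RNA change of 0.12 log2 ranged from -0.01 to 0.31 with 1 replicate left out and over all alternatives from -0.06 (set as covariate) to 0.31, within the replicate spread. In RNA 928 genes without saline 2 and 958 without methamphetamine 2 had an unadjusted p under 0.05, against 276. In CLIP per gene 10 of 22 members without saline 2 (677 of 9061 genes) and 7 of 25 without methamphetamine 2 (912 of 9085 genes) did, against 3 of 19 (426 of 8171 genes). At or above the list's median signal value, 8 of 16 methamphetamine and 6 of 13 saline positions in members remained. With a snoRNA overlap of at least 20 nt (chosen after seeing the data) 28 positions counted instead of 36. Without snoRNA positions (chosen after seeing the data) the CLIP share differed by 0.0071 percentage points between treatments, against 0.025 with them. Same-numbered saline and methamphetamine libraries did not deviate together (correlations of -0.35, -0.82 and -0.49 in RNA, -0.25, -0.41 and -0.04 in CLIP). With a replicate block 0 genes passed in RNA, 0 per CLIP gene, 0 per position and 0 relative to RNA with the pool as the block, and in the last 2 of 19 members had an unadjusted p under 0.05 against 4, with 176 of 6481 genes against 357. The biological coefficient of variation was 24.8% in RNA and 49.4% in CLIP per gene, and 19 of 85 members were deep enough for the CLIP test.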
